A study of Mus musculus with 18 samples.

Results

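Cholesterol synthesis and its control were examined through 26 transcripts, of 21954 genes in the deposited table, in mouse bone marrow derived macrophages. The members were taken by their symbols, and all 26 were found and passed the filter on low counts that 12514 genes passed. They comprise 8 enzymes of the mevalonate and isoprenoid steps (Acat2, Hmgcs1, Mvk, Pmvk, Mvd, Idi1, Fdps and Ggps1) and 11 enzymes of the squalene and sterol steps (Fdft1, Sqle, Lss, Cyp51, Tm7sf2, Msmo1, Nsdhl, Hsd17b7, Ebp, Sc5d and Dhcr7). The other 7 are regulators and further targets (Insig1, Insig2, Srebf1, Srebf2, Scap, Stard4 and Mylip).

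The cells came from mice with an L13a knockout (KO), which per the series title concerns macrophages, or from wild type controls (WT). Each genotype was treated with IFN, treated with IL4 or left untreated, with 3 libraries in each of the 6 groups and 18 in all. L13a, encoded by Rpl13a, belongs to the large subunit of the ribosome. IFN and IL4 are cytokines used to bring macrophages to the M1 and M2 states. The labels name neither the type of interferon nor the dose, time, strain, age or knockout allele. Whether replicate libraries stem from different mice or dishes is not stated either. Y-linked transcripts were present in some and not in other libraries of each WT group, so each WT group holds cells of more than 1 animal, while nothing in the labels or these transcripts shows this for KO. The p-values measure the spread between these libraries. Libraries are called by the number in their titles, which is 4 to 6 for IFN, 7 to 9 for IL4 and 1 to 3 for untreated cells in both genotypes.

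Cholesterol is built from acetyl-CoA through mevalonate, isoprenoid diphosphates, squalene and lanosterol. When sterol in the membrane of the endoplasmic reticulum falls, SCAP carries the precursor of the transcription factor SREBP2 to the Golgi, where proteases release its active part, and this part switches on the genes of the pathway. INSIG proteins hold SCAP back while sterol is plentiful. In macrophages interferon signalling and the oxysterol 25-hydroxycholesterol, made by the product of Ch25h, are known to hold this pathway down.

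Promoters are shown for the 5 members called after IFN or IL4 (Hmgcs1, Pmvk, Srebf1, Dhcr7 and Insig2), and for Idi1, whose level varied widely between libraries. RefSeq sequence on GRCm38.p6 was at hand for 22 of the 26 members, which have 30 promoters in the table, and not for Fdps, Fdft1, Sqle and Stard4. Each run covers 250 bases before to 50 bases after a transcription start, and capitals mark matches, on either strand, to the sterol regulatory element TCACNCCAC or to CCAAT, the box bound by NF-Y (ATTGG when read on the other strand). The windows are chr13:119690101-119690400 on the plus strand for Hmgcs1, chr3:89454291-89454590 on the plus strand for Pmvk, chr11:60222532-60222831 on the minus strand for Srebf1, chr13:8885356-8885655 on the plus strand for Idi1, chr7:143829964-143830263 on the plus strand for Dhcr7 and chr1:121332540-121332839 on the minus strand for Insig2.
Hmgcs1: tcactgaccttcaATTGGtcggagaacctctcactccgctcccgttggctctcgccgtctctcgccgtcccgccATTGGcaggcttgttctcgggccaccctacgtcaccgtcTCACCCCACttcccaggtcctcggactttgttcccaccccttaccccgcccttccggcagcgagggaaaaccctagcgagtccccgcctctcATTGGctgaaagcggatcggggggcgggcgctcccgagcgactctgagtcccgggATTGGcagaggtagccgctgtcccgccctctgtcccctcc
Pmvk: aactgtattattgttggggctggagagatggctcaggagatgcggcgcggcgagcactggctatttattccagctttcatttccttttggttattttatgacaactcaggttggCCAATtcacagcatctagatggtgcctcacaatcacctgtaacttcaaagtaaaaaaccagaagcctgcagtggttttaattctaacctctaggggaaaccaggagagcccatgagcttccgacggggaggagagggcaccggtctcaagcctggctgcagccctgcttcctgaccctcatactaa
Srebf1: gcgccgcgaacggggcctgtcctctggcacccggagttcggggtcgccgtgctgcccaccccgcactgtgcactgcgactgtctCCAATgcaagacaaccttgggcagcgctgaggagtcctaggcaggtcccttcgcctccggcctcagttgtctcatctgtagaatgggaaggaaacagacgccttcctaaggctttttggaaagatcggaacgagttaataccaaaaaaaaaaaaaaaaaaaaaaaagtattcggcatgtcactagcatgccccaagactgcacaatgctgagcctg
Idi1: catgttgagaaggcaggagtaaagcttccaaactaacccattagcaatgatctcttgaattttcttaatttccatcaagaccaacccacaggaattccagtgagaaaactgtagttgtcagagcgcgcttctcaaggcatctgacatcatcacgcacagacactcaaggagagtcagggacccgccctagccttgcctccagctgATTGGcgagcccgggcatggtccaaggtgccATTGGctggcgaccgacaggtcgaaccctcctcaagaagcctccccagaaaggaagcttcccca
Dhcr7: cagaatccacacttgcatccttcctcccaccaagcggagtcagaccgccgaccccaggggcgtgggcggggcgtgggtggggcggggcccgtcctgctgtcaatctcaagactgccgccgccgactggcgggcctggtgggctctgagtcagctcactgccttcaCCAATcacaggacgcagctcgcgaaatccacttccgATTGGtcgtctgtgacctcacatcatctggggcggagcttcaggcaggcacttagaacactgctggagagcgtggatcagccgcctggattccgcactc
Insig2: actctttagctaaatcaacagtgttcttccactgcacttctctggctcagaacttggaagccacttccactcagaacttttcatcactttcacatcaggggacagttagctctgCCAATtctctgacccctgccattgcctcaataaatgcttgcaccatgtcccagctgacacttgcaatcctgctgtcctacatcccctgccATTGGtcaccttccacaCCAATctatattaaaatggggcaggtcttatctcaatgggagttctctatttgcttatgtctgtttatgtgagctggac
The Hmgcs1 window holds TCACCCCAC starting 137 bases before the start site, and 4 CCAAT boxes. Pmvk has 2 promoters in the table, and the one shown has 1 CCAAT box while the other has none. Srebf1 has 3, of which the one shown and 1 other have 1 CCAAT box each. Idi1 has 2 CCAAT boxes in its window. Dhcr7 has 3 promoters in the table, and the one shown has 2 CCAAT boxes while the other two have none. Insig2 also has 3 promoters, and the one shown has 3 CCAAT boxes while the other two have none.

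TCACNCCAC was found in 1 of the 30 member promoters, that of Hmgcs1, and in 408 of 32851 promoters in the table (1.24%). CCAAT was found in 21 of the 30 member promoters and in 37.4% of all promoters. Counted by gene, 20 of the 22 matched members had it, against 41.1% of 27025 genes. The 2 motifs share no overlapping letters in these windows. A match is a description of the letters, and the absence of one covers only this window and this spelling.

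The libraries held 18098700 to 28477300 expected counts each, and the lowest count of any member in any library was 99. Rpl13a, the targeted gene, was lower on average in KO than in WT in each treatment, with 248, 189 and 425 CPM (counts scaled to the TMM-normalized library size) in KO and 437, 552 and 618 CPM in WT after IFN. It was at 206, 333 and 606 CPM in KO and 598, 743 and 867 CPM in WT after IL4, where 1 KO library lies above 1 WT library, and at 156, 201 and 401 CPM in KO and 617, 745 and 746 CPM in WT without treatment. All 8 macrophage markers were detected in each library. Adgre1 and Csf1r were at like levels in both genotypes, while Lyz2 lay between 0.682 and 7.12 CPM in KO and between 2881 and 12108 CPM in WT libraries. In untreated cells Fcgr1 was lower in KO (39.6 to 65.8 CPM) than in WT (96.9 to 117 CPM). Itgam was higher there in KO (1022 to 1485 CPM) than in WT (958 to 976 CPM). Cd68, Mertk and Cd14 overlapped between untreated KO and WT libraries. Markers of other cells were also found. The summed level of 12 stromal markers was 32.1 to 751 CPM in KO and 71.2 to 764 CPM in WT libraries, while 3 lymphocyte and 3 adipocyte markers summed to below 1 CPM. In untreated cells the stromal sum was 80.8 to 311 CPM in KO and 677 to 764 CPM in WT, with no overlap, while after IFN and after IL4 the genotypes overlapped. Transcripts of Y-linked genes were found in 5 of the 9 WT libraries and at or near 0 in all 9 KO libraries, so sex and genotype were not balanced. In bulk RNA, fewer cells of a type and less RNA per cell cannot be told apart.

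In untreated cells the members spanned more than an order of magnitude per unit of length. The lowest mean was that of Hsd17b7, a sterol 3-keto reductase, at 5.75 ± 3.54 TPM in KO and 5.88 ± 3.15 TPM in WT (SD, n = 3 each). Fdps, the farnesyl diphosphate synthase, was at 81.9 ± 47.2 TPM in KO and 82.5 ± 42.9 TPM in WT, and Msmo1, the methylsterol monooxygenase, at 81.5 ± 31.6 TPM in KO and 89.2 ± 37.5 TPM in WT. Those were the 2 highest means in both genotypes, and they do not differ from each other beyond their spread. Srebf2, which encodes SREBP2, followed at 67.5 ± 27.4 TPM in KO and 53 ± 16.6 TPM in WT.

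Enzyme levels differed widely between libraries of the same group. The 19 enzyme transcripts summed to 304, 591 and 652 TPM in untreated KO libraries 1, 2 and 3, and to 309.7, 631 and 613 TPM in the WT libraries of the same numbers. After IL4 the sums were 353, 635 and 918 TPM in KO libraries 7, 8 and 9, and 379.6, 617 and 803 TPM in WT libraries 7, 8 and 9. After IFN they were lower and closer together, at 291, 269 and 358 TPM in KO libraries 4, 5 and 6 and 334, 392 and 326 TPM in the WT libraries. Library 1 of both untreated groups thus lay at the level of the IFN-treated libraries. TPM of all genes also shifted after IFN, with a median log2 fold change of -0.31 in KO and -0.08 in WT on log2(TPM + 1). The part of this shift in the sums was not tested.

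**Figure D1:**
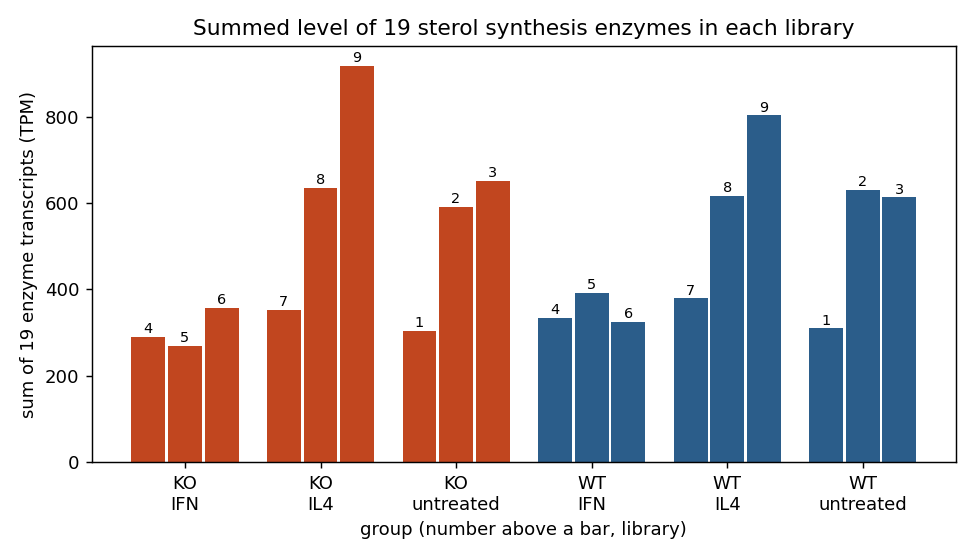
Summed level, in TPM, of 19 sterol synthesis enzyme transcripts in each library (bars, numbered by library) of the 6 groups, KO in red and WT in blue. Untreated library 1 (304 TPM in KO, 309.7 TPM in WT) and IL4 library 7 (353 TPM in KO, 379.6 TPM in WT) are the lowest of their groups, while the 6 IFN libraries run from 269 to 392 TPM.

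Library 1 was the lowest of its group in both genotypes for 19 of the 26 members, as it was for 27.2% of all genes tested. It was the lowest for 16 of the 19 enzymes. Library 7 was the lowest after IL4 in both genotypes for 21 of the 26 members, 18 of them enzymes, against 25.6% of all genes. Library 4 was the lowest after IFN in both genotypes for 6 members, against 17.5% of all genes. Mylip and Scap went the other way in libraries 1, 4 and 7, where they were the highest in both genotypes, as were Srebf1 in library 1 and Ggps1 in library 7. These are 3, 2 and 3 of the 26 members in libraries 1, 4 and 7. Of all genes 29.1%, 18.4% and 28.2% were the highest there in both genotypes, a larger share than of the members.

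The enzymes varied by different amounts. Over the 19 enzymes, the TPM of library 1 divided by the mean of the other 2 libraries had a median of 0.501 in KO (range 0.185 to 1.71) and 0.497 in WT (range 0.21 to 1.12). For library 7 this ratio had a median of 0.465 in KO (range 0.245 to 1.61) and 0.615 in WT (range 0.326 to 1.5). The medians of the ratio over all genes lay between 1.06 and 1.14 in these 4 groups. Idi1, the isopentenyl diphosphate isomerase, was among the most variable, with 10.5, 49.4 and 77.4 CPM in untreated KO libraries 1, 2 and 3 and 16, 87.2 and 89.2 CPM in untreated WT libraries 1, 2 and 3. In both genotypes library 1 stands far below the other two.

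Mylip, which encodes an E3 ligase that marks lipoprotein receptors for breakdown and is induced by LXR when sterol is plentiful, had 129, 45.8 and 30.2 CPM in untreated KO libraries and 111, 25.7 and 28.4 CPM in untreated WT libraries, with library 1 the highest in both. After IL4 it had 51.8, 14.4 and 12.4 CPM in KO and 39, 6.58 and 12.8 CPM in WT, with library 7 the highest in both. Scap, the carrier of SREBP, differed less, with 79.6, 69.5 and 65 CPM in untreated KO and 65.1, 62.5 and 60.5 CPM in untreated WT libraries. Ggps1, which makes geranylgeranyl diphosphate for the branch that leaves the sterol route, stayed between 9.7 and 17.4 CPM in all 18 libraries.

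Markers of dividing cells moved with this spread, by more in KO than in WT cells. Their summed level was 201 CPM in KO library 7 against 524 and 762 CPM in KO libraries 8 and 9, and 189 CPM in KO library 1 against 465 and 790 CPM in KO libraries 2 and 3. It was also low in KO libraries 4 and 5 after IFN, at 185 and 175 CPM against 549 CPM in KO library 6. In WT cells it was 599, 698 and 625 CPM in libraries 7, 8 and 9, 538, 736 and 753 CPM in libraries 1, 2 and 3, and 590.3, 661 and 552 CPM in libraries 4, 5 and 6. WT libraries 1 and 7 were the lowest of their groups for these markers as for the enzymes. After IFN the markers in WT had the same order of libraries as the enzyme sums in TPM. By the mean log2 CPM of the enzymes the order differed, at 4.10, 4.41 and 4.25 in WT libraries 4, 5 and 6. WT libraries 1 and 7 held Y-linked transcripts, as did WT libraries 4, 5 and 8. In KO, Rpl13a had the same order of libraries as the enzyme sums in each treatment. It had 156, 201 and 401 CPM in untreated KO libraries 1, 2 and 3, and 248, 189 and 425 CPM in KO libraries 4, 5 and 6. In KO libraries 7, 8 and 9 it had 206, 333 and 606 CPM. In WT the order matched after IL4 only. The part of dividing cells, of sex and of the remaining Rpl13a in the spread was not tested.

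**Figure D2:**
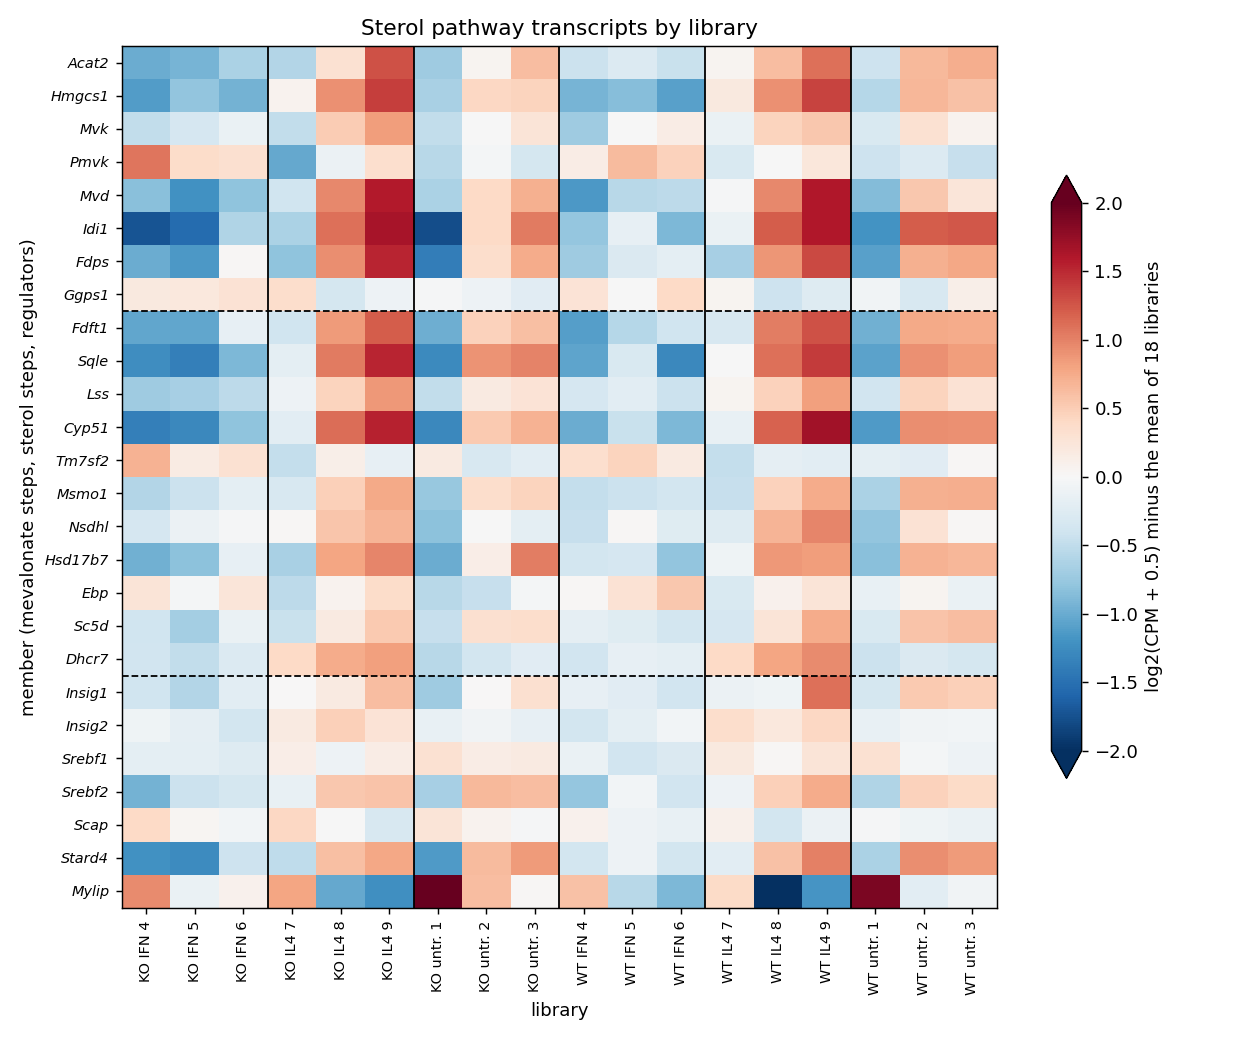
Each row is a member and each column a library, grouped by genotype and treatment. Colour gives log2(CPM + 0.5) minus the member's mean over 18 libraries, and dashed lines separate mevalonate steps, sterol steps and regulators. Libraries 1 and 7 of both genotypes are blue for most enzymes next to the other libraries of their groups, and Mylip has the opposite colour.

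Treatment with IFN left most members lower in both genotypes, but few passed the test. In KO cells 1 member rose (Pmvk) and 1 fell (Srebf1), where 21.6% of all genes were called, 12.6% higher and 8.93% lower. In WT cells 1 member fell (Hmgcs1) and 0 rose, where 18.6% of all genes were called, 11.1% higher and 7.55% lower. Calls rest on edgeR's quasi-likelihood test with Benjamini-Hochberg adjusted p under 0.05 over all genes tested. The share of members called was below that of all genes in both genotypes. The log2 fold change was below 0 for 20 of 26 members in KO and for 20 of 26 in WT. The median over members was -0.59 in KO and -0.57 in WT, beside -0.03 and -0.02 over all genes. The KO median was -0.38 without KO untreated library 3, and the WT median -0.33 with the Y-linked covariate. CPM did not overlap between IFN-treated and untreated libraries for 2 higher and 4 lower members in KO, beside 18.8% and 15.7% of all genes, and for 2 higher and 2 lower members in WT, beside 18.7% and 18.6%. Stromal markers moved with the treatment in WT, where they summed to 136, 71.2 and 128 CPM after IFN and 677, 764 and 763 CPM without it, and spread widely in KO, at 32.1, 188 and 554 CPM after IFN and 177, 80.8 and 311 CPM without it. Summed markers of dendritic (4 genes) and of bone-forming cells (5 genes) were lower after IFN in both genotypes with no overlap. Most of the dendritic sum was Cd24a, at 15.3 CPM in untreated and 7.04 CPM in IFN-treated KO on average. In KO the means of Ccr7 (0.826 and 0.984 CPM) and Zbtb46 (0.357 and 0.361 CPM) did not fall. Most of the bone-forming sum in KO was Runx2, at 19.2 CPM untreated and 12.1 CPM after IFN, while in untreated WT Ibsp (19.4 ± 15.9 CPM) also had a large part. The dendritic sum was 10.9, 7.88 and 6.77 CPM after IFN and 19.4, 16 and 15 CPM without it in KO, and 3.53, 5.00 and 1.63 CPM after IFN and 7.96, 8.56 and 11.1 CPM without it in WT. The bone-forming sum was 13, 13.5 and 11.7 CPM after IFN and 20.9, 20.2 and 19.3 CPM without it in KO, and 13.7, 9.30 and 5.84 CPM after IFN and 20.3, 54.8 and 46 CPM without it in WT. The part of these cells in the members' levels was not tested.

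Hmgcs1 encodes HMG-CoA synthase, which makes the last intermediate before mevalonate, and lies on chromosome 13 at 119690379 to 119708260 of GRCm38. It had 25.3, 26.8 and 22.6 CPM in IFN-treated WT libraries and 32.8, 77.8 and 73.3 CPM in untreated WT libraries (log2 fold change -1.29, SE 0.39, adjusted p = 0.0300). In KO it had 22.3, 27.9 and 25.1 CPM after IFN and 31, 64.7 and 66.8 CPM without treatment (log2 fold change -1.11, SE 0.39, adjusted p = 0.0555). The groups do not overlap in either genotype, even with the low library 1. In WT the call was lost when any library other than WT untreated 1 was left out, with adjusted p up to 0.119.

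Pmvk, the phosphomevalonate kinase, is on chromosome 3 at 89454541 to 89469013 and was the member that rose in KO, where most members were lower. It had 31.4, 19.1 and 18.4 CPM in IFN-treated KO libraries and 9.87, 14.2 and 11.4 CPM in untreated KO libraries (log2 fold change 0.97, SE 0.29, adjusted p = 0.0263). In WT it had 16.2, 23 and 20.4 CPM after IFN and 10.9, 12 and 10.5 CPM without treatment (log2 fold change 0.84, SE 0.29, adjusted p = 0.0595). The IFN libraries lie above the untreated ones in both genotypes. The KO value leans on library 4, without which the log2 fold change was 0.64 with an adjusted p of 0.186. The KO call was kept in 3 of 6 fits with 1 library left out and in 4 of 8 other fits.

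Srebf1, which encodes the SREBP1 factors that act mainly on fatty acid genes, is on chromosome 11 at 60199089 to 60222581. It had 68.2, 68.7 and 65.8 CPM in IFN-treated KO libraries and 96.8, 86.8 and 89.5 CPM in untreated KO libraries (log2 fold change -0.43, SE 0.12, adjusted p = 0.0209). In WT it had 71.3, 59.8 and 64.4 CPM after IFN and 97.5, 76.6 and 73.3 CPM without treatment (log2 fold change -0.34, SE 0.12, adjusted p = 0.0696). The groups do not overlap in either genotype, and the difference is small next to those of the enzymes. The KO call was lost without KO untreated library 1 and without KO IFN library 6, at adjusted p of 0.0533 and 0.0518.

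Several enzymes with larger differences missed the threshold. For Sqle, Cyp51 and Idi1, untreated library 1 lay within or below the range of the IFN libraries. Mvd and Lss in KO did not overlap and were not called either. Mvd ran from 5.44 to 7.43 CPM after IFN and from 8.40 to 22.1 CPM without it, and Lss from 11.8 to 13.6 CPM and from 13.9 to 23.9 CPM. Sqle, the squalene epoxidase and a rate-limiting step, had 14.2, 13 and 18 CPM in IFN-treated KO libraries and 13.8, 63.9 and 68.8 CPM in untreated KO libraries (log2 fold change -1.70, SE 0.62, adjusted p = 0.0657). In WT it had 16.2, 27.7 and 13.7 CPM after IFN and 16, 64.6 and 61.3 CPM without treatment (log2 fold change -1.29, SE 0.61, adjusted p = 0.166). Untreated library 1 overlaps the IFN libraries in both genotypes. Cyp51, the lanosterol demethylase, had 16.6, 17.5 and 24.8 CPM after IFN and 17.6, 62.6 and 70.8 CPM without treatment in KO (log2 fold change -1.36, SE 0.62, adjusted p = 0.137). For Idi1 the log2 fold change was -1.53 in KO and -1.36 in WT, with adjusted p of 0.175 and 0.228.

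By step, 6 of the 8 mevalonate and isoprenoid enzymes were below 0 in each genotype, with a median log2 fold change of -0.89 in KO and -0.77 in WT. The exceptions were Pmvk and Ggps1. Of the 11 squalene and sterol enzymes 8 were below 0 in each genotype, with a median of -0.51 in KO and -0.61 in WT. Tm7sf2, a sterol reductase, was at 0.52 in KO and 0.48 in WT, and its WT groups do not overlap. Ebp, the sterol isomerase, was at 0.49 in KO and 0.37 in WT. Dhcr7, the last reductase before cholesterol, was at -0.00 in KO and 0.11 in WT. None of these 3 was called.

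Among the regulators, Srebf2 had 71.9, 104 and 109.5 CPM in IFN-treated KO libraries and 88.1, 218 and 213 CPM in untreated KO libraries (log2 fold change -0.86, SE 0.36, adjusted p = 0.103). Stard4, a carrier that moves cholesterol between membranes, had 12.5, 12.1 and 22 CPM after IFN and 13.2, 46.2 and 53.6 CPM without treatment in KO (log2 fold change -1.28, SE 0.52, adjusted p = 0.0949). In both, untreated library 1 lies among the IFN libraries. Insig1, a sensor that SREBP2 itself induces, was at -0.33 in KO and -0.52 in WT on the log2 scale, and Scap at 0.03 in KO and 0.03 in WT.

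Counts of calls after IFN changed when libraries were left out. With libraries 1, 4 and 7 of both genotypes left out, a choice made after the values were seen and on these members, 14 members fell in KO and 12 in WT, and all 12 were among the 14. They were Cyp51, Fdft1, Hmgcs1, Hsd17b7, Idi1, Lss, Msmo1, Mvd, Sc5d, Sqle, Srebf2 and Stard4, and KO added Acat2 and Srebf1. The same fit called 8.93% of all genes lower in KO and 6.86% in WT. In it the log2 fold change of Idi1 was -1.82 in KO and -1.74 in WT, that of Sqle -2.13 in KO and -1.61 in WT, and that of Cyp51 -1.69 in KO and -1.61 in WT. Pmvk rose in WT and lost its call in KO. This fit has 2 libraries per group, and untreated WT libraries 2 and 3 were closer to each other than any other pair of the same group (chi-square per degree of freedom 5.9 against 48.3 to 179). Untreated library 1 was the lowest of its group in both genotypes for all members that fell here but Srebf1. Leaving it out, alone or with others, raises their untreated mean by construction. These counts and their overlap are therefore no test of the response. Leaving out KO untreated library 1 alone gave 5 members that fell in KO (Hmgcs1, Lss, Sqle, Srebf2 and Stard4), and leaving out WT untreated library 1 alone gave 2 in WT (Hmgcs1 and Msmo1). Leaving out IFN library 4 alone gave 0 members that rose and 1 that fell in KO, and 0 and 0 in WT.

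**Figure D3:**
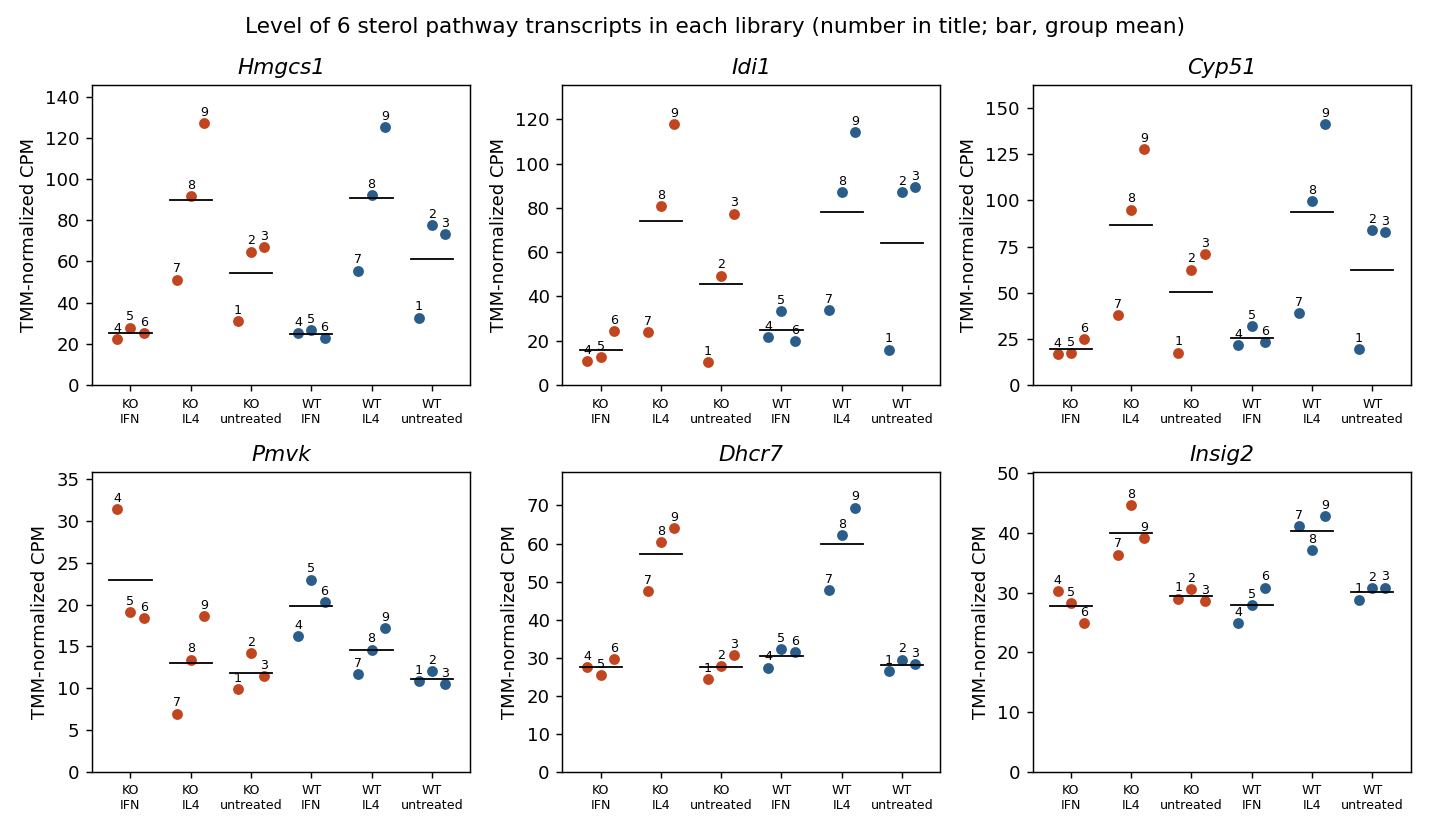
TMM-normalized CPM of 6 members in each library (points, numbered by library) of the 6 groups, with bars at group means. Hmgcs1, Idi1 and Cyp51 are low after IFN and in untreated library 1, Pmvk is higher after IFN, and Dhcr7 and Insig2 are higher in all 6 IL4 libraries than in untreated ones.

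IL4 went with higher levels of most members, and 2 rose in both genotypes. In KO cells 2 members rose and 0 fell, where 9.48% of all genes were called, 5.35% higher and 4.12% lower. In WT cells 2 members rose and 0 fell, where 8.49% of all genes were called, 4.96% higher and 3.53% lower. Both times they were Dhcr7 and Insig2. The member count is near the background share. The log2 fold change was above 0 for 22 of 26 members in KO and 20 of 26 in WT, with a median of 0.40 in KO and 0.28 in WT beside 0.01 and -0.01 over all genes. CPM did not overlap for 3 higher and 0 lower members in KO, beside 11.3% and 10.7% of all genes, and for 2 higher and 0 lower members in WT, beside 13.8% and 14.7%.

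These medians and tallies rest on single libraries. In KO the median was 0.12 with 17 of 26 members above 0 without KO IL4 library 9, and 0.14 with 18 of 26 without KO untreated library 1. In WT it was 0.01 with 13 of 26 above 0 without WT untreated library 1, and 0.05 with 14 of 26 without WT IL4 library 9. It was 0.47 in WT without WT IL4 library 7, 0.45 without WT untreated library 2 and 0.47 with the Y-linked covariate. On log2(TPM + 1) the median was 0.10 in KO and 0.17 in WT, with 17 of 26 above 0 in each, beside -0.16 and -0.11 over all genes.

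Markers of other cells moved with IL4 as well. The stromal sum was 166, 264 and 363 CPM after IL4 and 677, 764 and 763 CPM without it in WT, with no overlap, and 139.9, 148 and 751 CPM after IL4 and 177, 80.8 and 311 CPM without it in KO, with overlap. The dendritic sum was higher after IL4 in both genotypes, at 50.7, 37.4 and 48.8 CPM in KO and 15.4, 30.7 and 29.8 CPM in WT, with no overlap with untreated libraries, and most of it was Cd24a. The mean of Zbtb46 also rose, from 0.357 to 1.95 CPM in KO and from 0.107 to 1.24 CPM in WT. The means of Ccr7 (0.826 to 0.559 CPM in KO, 0.168 to 0.0455 CPM in WT) and Flt3 (0.312 to 0.176 CPM in KO, 0.237 to 0.134 CPM in WT) fell. Of the 4 dendritic markers 2 to 4 were detected in each IL4 library. Their part in the members' levels was not tested.

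Dhcr7, which encodes 7-dehydrocholesterol reductase on chromosome 7 at 143823145 to 143848410, had 47.6, 60.3 and 64 CPM in IL4-treated KO libraries and 24.3, 27.8 and 30.6 CPM in untreated KO libraries (log2 fold change 1.05, SE 0.15, adjusted p = 0.000348). In WT it had 47.7, 62.3 and 69.5 CPM after IL4 and 26.5, 29.5 and 28.2 CPM without treatment (log2 fold change 1.09, SE 0.15, adjusted p = 0.000251). The groups are far apart in both genotypes, and untreated library 1 is close to libraries 2 and 3. The call was kept in both genotypes in all 8 other fits and with each of 6 libraries left out. Per unit of length it averaged 39.5 ± 4.90 TPM in IL4-treated KO and 21.9 ± 1.54 TPM in untreated KO cells, and 38.6 ± 5.08 TPM in IL4-treated WT and 19.9 ± 0.930 TPM in untreated WT cells (SD, n = 3 each).

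Insig2, the INSIG form that SREBP2 does not induce, is on chromosome 1 at 121304353 to 121332589. It had 36.4, 44.7 and 39.1 CPM in IL4-treated KO libraries and 29, 30.5 and 28.6 CPM in untreated KO libraries (log2 fold change 0.45, SE 0.12, adjusted p = 0.0252). In WT it had 41.2, 37.1 and 42.8 CPM after IL4 and 28.8, 30.7 and 30.9 CPM without treatment (log2 fold change 0.42, SE 0.12, adjusted p = 0.0361). The groups do not overlap in CPM, but the difference is small and its call was fragile. It was lost in KO for 5 of 6 libraries left out and in WT for all 6, and limma on log2(TPM + 1) gave 0.19 in KO and 0.33 in WT with adjusted p of 0.373 and 0.132.

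Other enzymes were higher after IL4 on average, without a call. Nsdhl, a sterol dehydrogenase, had 18.7, 27.4 and 29.8 CPM in IL4-treated KO libraries and 10.3, 18.3 and 16 CPM in untreated KO libraries (log2 fold change 0.77, SE 0.32, adjusted p = 0.160), with no overlap. In WT it had 15.4, 30.0 and 36.8 CPM after IL4 and 10.5, 22.5 and 18.8 CPM without treatment (log2 fold change 0.67, SE 0.32, adjusted p = 0.244), with overlap. Hmgcs1 had 51.2, 91.9 and 127 CPM after IL4 in KO (log2 fold change 0.73, SE 0.38, adjusted p = 0.274) and 55.5, 92.2 and 125 CPM after IL4 in WT (log2 fold change 0.57, SE 0.38, adjusted p = 0.440). In both genotypes its library 7 lies among the untreated libraries. Mylip was at -1.38 in KO and -1.50 in WT, with adjusted p of 0.320 and 0.295, and its groups overlap. With libraries 1, 4 and 7 left out, a choice made after the values were seen, Dhcr7, Hmgcs1, Insig2 and Nsdhl rose and Mylip fell in KO, and Dhcr7 and Nsdhl rose and Mylip fell in WT. That fit called 4.86% of all genes higher and 4.4% lower in KO, and 4.78% higher and 3.72% lower in WT.

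**Figure D4:**
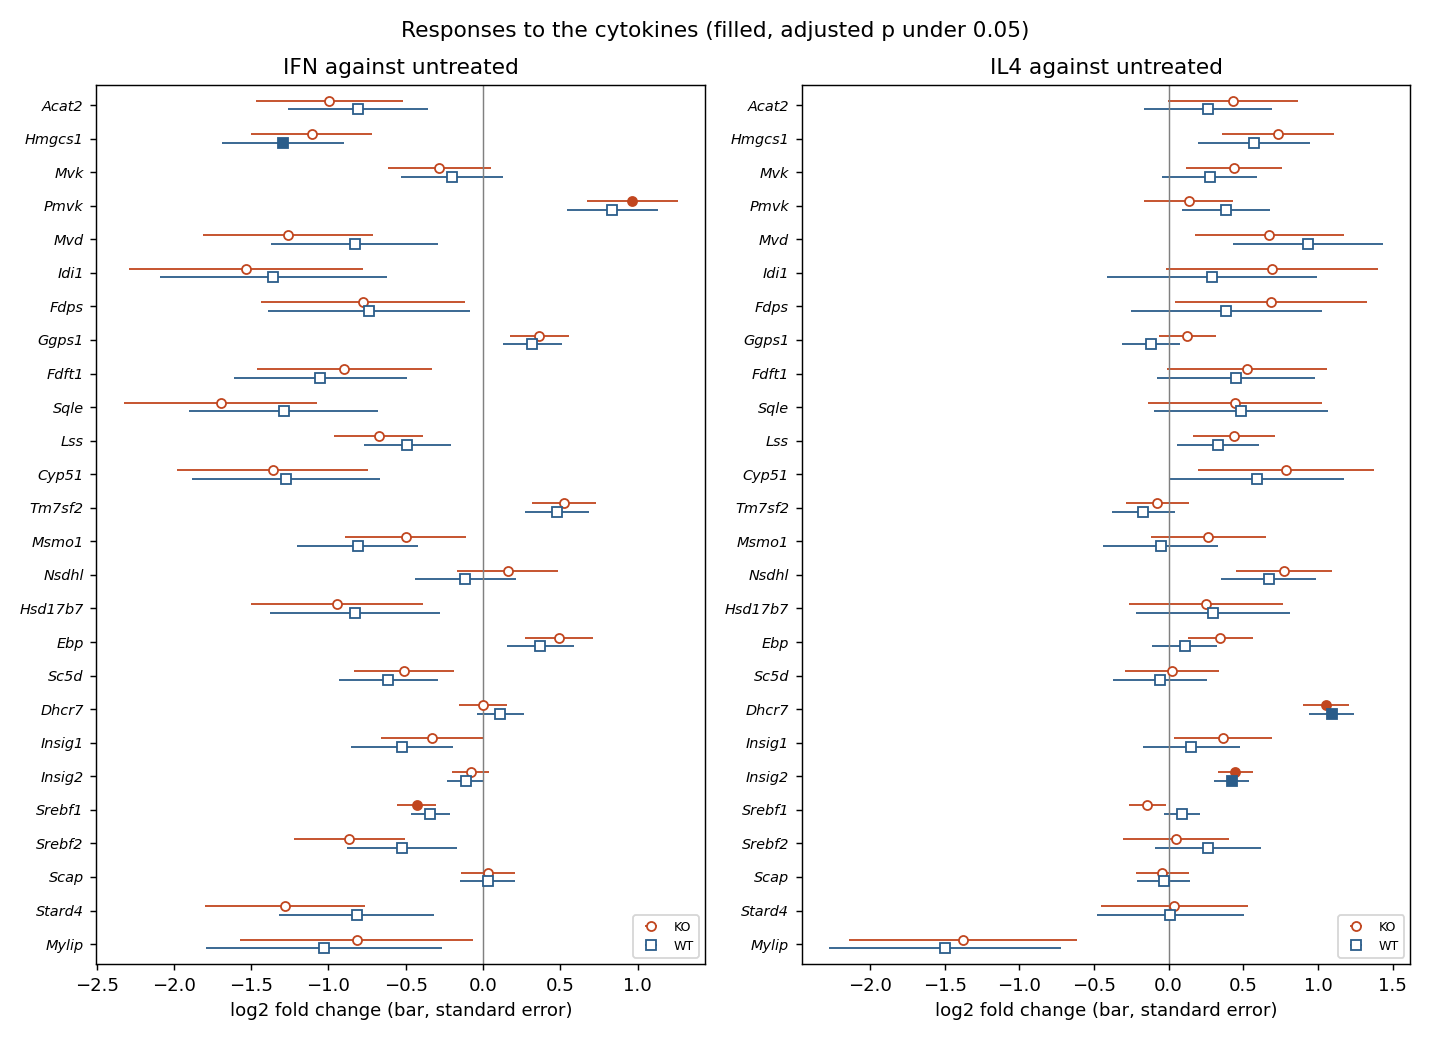
Log2 fold change of each member with its standard error (bars) after IFN (left) and IL4 (right) against untreated cells, KO as red circles and WT as blue squares, filled where the adjusted p is under 0.05. After IFN most enzymes lie left of 0 with wide errors, while Dhcr7 after IL4, at 1.05 in KO and 1.09 in WT, stands clear of 0.

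The knockout itself was compared with WT in each treatment. After IFN 0 of 26 members were called, where 0.0639% of all genes were, after IL4 0 of 26, where 0.0639% were, and without treatment 0 of 26, where 0.0799% were. For the mean over the 3 treatments it was 0 of 26, where 0.392% were called. The lowest unadjusted p of a member was 0.237 after IFN, 0.314 after IL4, 0.241 without treatment and 0.0867 for the mean, so 0 members passed an unadjusted 0.05, where 724, 308, 944 and 1281 genes did. DESeq2 also called 0 members in each. These comparisons called few genes of any kind and have little reach for small differences. Rpl13a ran from 156 to 401 CPM in untreated KO and from 206 to 606 CPM in IL4-treated KO, so its loss was uneven. The dendritic sum, mostly Cd24a, was higher in KO in each treatment with no overlap. The stromal sum in untreated cells and the dividing-cell sum after IFN were lower in KO with no overlap, while both overlapped in the other treatments. Their part in these comparisons was not tested.

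The fitted differences between genotypes did not pass the test, and after IL4 and without treatment the sign of their median changed with single libraries. The median log2 fold change over members was -0.14 after IFN (17 of 26 below 0), -0.06 after IL4 (18 of 26) and -0.12 without treatment (18 of 26), while the medians over all genes were 0.02, 0.00 and 0.01. With 1 library left out, the median after IFN ran from -0.26 (without KO library 6) to -0.05 (without KO library 5), and was -0.07 without WT library 5 and -0.08 without WT library 6. After IL4 it ran from -0.31 (without KO library 9) to 0.21 (without KO library 7). It was -0.27 without WT library 7, -0.00 without WT library 8 and 0.19 without WT library 9, where 24 of 26 members were above 0. In untreated cells it ran from -0.36 (without WT library 1) to 0.09 (without KO library 1). It was -0.28 without KO library 3, -0.20 without KO library 2, 0.05 without WT library 2 and 0.02 without WT library 3.

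The Y-linked covariate gave medians of -0.50 after IFN, -0.39 after IL4 and -0.24 without treatment. On log2(TPM + 1) the median was -0.23 after IFN with 23 of 26 below 0, 0.03 after IL4 with 16 of 26 above 0, and 0.04 without treatment with 15 of 26 above 0. The medians of all genes in that fit were -0.07, 0.07 and 0.15. No direction over the members is therefore given for IL4 or for untreated cells. After IFN 3 members did not overlap and were lower in KO, beside 5.71% of all genes. Stard4 had 12.5, 12.1 and 22 CPM in IFN-treated KO and 22.7, 27.4 and 22.8 CPM in IFN-treated WT libraries (log2 fold change -0.65, SE 0.53, adjusted p = 0.986). Acat2, the cytosolic thiolase that opens the pathway, had 5.80, 6.06 and 7.55 CPM in IFN-treated KO and 8.78, 9.90 and 8.73 CPM in IFN-treated WT libraries (log2 fold change -0.50, SE 0.50, adjusted p = 0.996). Lss, the lanosterol synthase, had 11.8, 12.2 and 13.6 CPM in IFN-treated KO and 15.6, 17 and 14.5 CPM in IFN-treated WT libraries (log2 fold change -0.32, SE 0.29, adjusted p = 0.994).

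Scap was the member with the lowest p over the mean of the treatments, at 0.19 in KO relative to WT (SE 0.10, adjusted p = 0.586). It had 87.4, 68.3 and 63.5 CPM in KO and 70.6, 61.4 and 59.9 CPM in WT after IFN, and 88.6, 66.2 and 53.2 CPM in KO and 71.4, 51.3 and 61 CPM in WT after IL4. The genotypes overlap in both treatments. In untreated cells the named members were Insig1 (-0.34), Ebp (-0.26), Scap (0.19) and Srebf1 (0.14), all log2 fold changes of KO over WT. After IL4 they were Ggps1 (0.20), Scap (0.18), Srebf1 (-0.09) and Tm7sf2 (0.13).

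**Figure D5:**
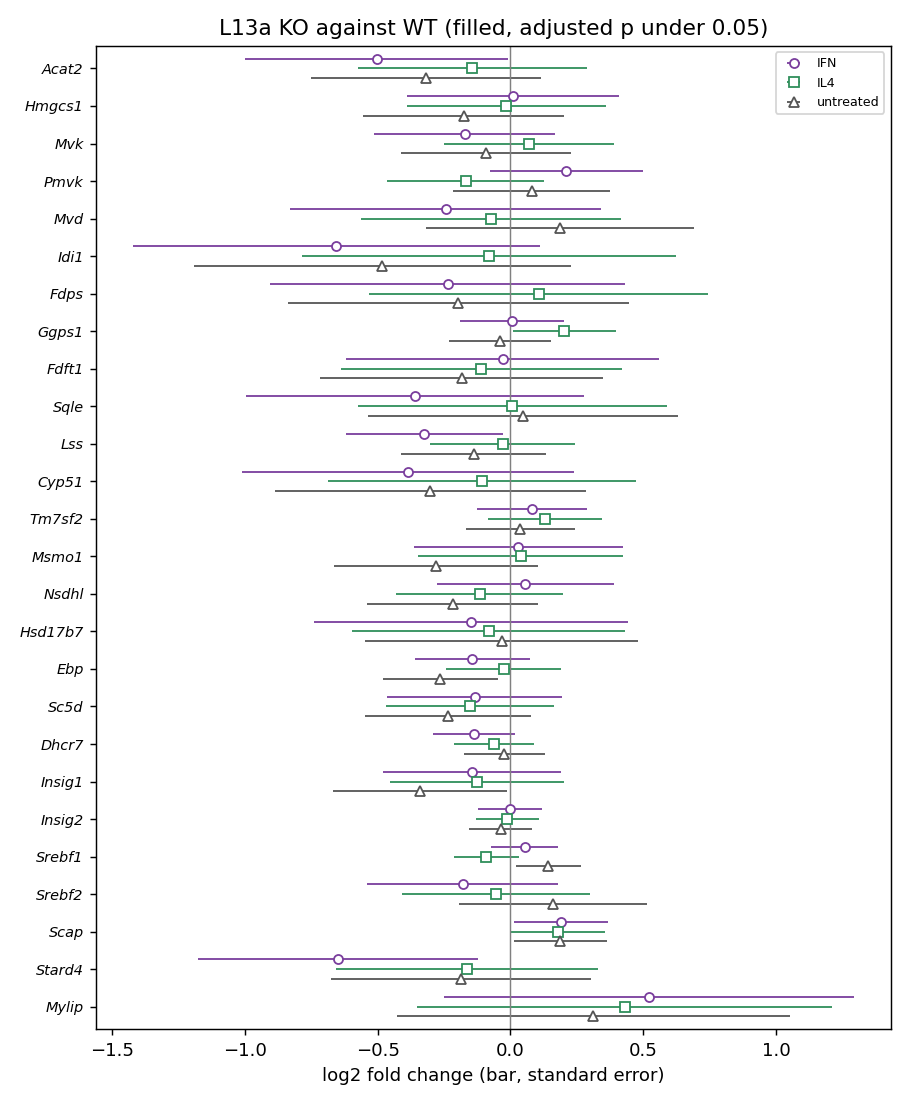
Log2 fold change of each member in KO over WT with its standard error (bars) after IFN (circles), after IL4 (squares) and without treatment (triangles). No symbol is filled because no member passed an adjusted p of 0.05, and most errors cross 0.

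The responses to the cytokines did not differ detectably between genotypes in any member. For IFN the response in KO minus that in WT ran from -0.46 (Stard4) to 0.31 (Msmo1) on the log2 scale, and for IL4 from -0.26 (Mvd) to 0.40 (Idi1), with 0 members called in either. The share of all genes called was 0% in both. At an unadjusted p under 0.05 there were 0 members and 617 genes for IFN, and 0 members and 249 genes for IL4. DESeq2 called 26 genes for IFN and 1 for IL4, and 0 members. A difference that misses the threshold does not show that the responses were alike.

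Genes around the pathway were counted in lists of related function. Of 8 genes of the SREBP processing machinery 3 rose and 1 fell after IFN in both genotypes. Of all genes 12.6% were called higher and 8.93% lower in KO, and 11.1% higher and 7.55% lower in WT. Rnf145, a sterol-responsive E3 ligase of the endoplasmic reticulum, rose with a log2 fold change of 1.08 in KO and 0.95 in WT (adjusted p = 0.00168 and 0.00465). Rnf139, another such ligase, was at 1.06 in KO and 0.76 in WT, and Aup1, which helps membrane protein breakdown, at 0.88 in KO and 0.74 in WT. Mbtps1, the site-1 protease that makes the first cut in SREBP, fell to 69.0 ± 4.89 CPM in IFN-treated KO against 103 ± 4.12 CPM in untreated KO cells, and to 68.7 ± 9.05 CPM in IFN-treated WT against 95.9 ± 6.42 CPM in untreated WT cells (SD, n = 3 each). Its log2 fold change was -0.58 in KO and -0.48 in WT. After IL4 0 of the 8 were called in either genotype.

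Of 15 genes of fatty acid synthesis and desaturation, 6 fell and 0 rose after IFN in KO, and 4 fell and 0 rose in WT, where 8.93% of all genes were called lower in KO and 7.55% in WT. The median log2 fold change was -0.40 in KO and -0.57 in WT, beside -0.03 and -0.02 over all genes. Acsl3, an acyl-CoA synthetase, was at -1.16 in KO and -1.41 in WT, Lpin1, a phosphatidate phosphatase, at -1.59 in KO and -1.59 in WT, and Mid1ip1, which activates acetyl-CoA carboxylase, at -1.03 in KO and -0.67 in WT. After IL4 Mid1ip1 also fell, by 0.87 in KO and 0.59 in WT on the log2 scale. Elovl1, an elongase, rose after IL4, by 0.42 in KO and 0.44 in WT.

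Of 13 genes of LXR, oxysterols and efflux, 4 rose and 1 fell after IFN in KO, and 2 rose and 1 fell in WT. The shares of all genes called higher were 12.6% in KO and 11.1% in WT, and those called lower 8.93% and 7.55%, so that the WT counts are near the background. Ch25h, the cholesterol 25-hydroxylase, averaged 9.05 ± 1.28 CPM in IFN-treated KO against 1.2 ± 0.622 CPM in untreated KO cells (log2 fold change 2.91, SE 0.80, adjusted p = 0.0164). It averaged 20.2 ± 6.10 CPM in IFN-treated WT against 0.565 ± 0.226 CPM in untreated WT cells (log2 fold change 5.09, SE 0.85, adjusted p = 0.000540, SD and n = 3 each). The IFN response of Ch25h in KO minus that in WT was -2.18 on the log2 scale and was not called by edgeR. Both responses start from very low untreated levels. Npc2, a lysosomal carrier of cholesterol, rose by 1.22 in KO and 1.00 in WT, and Rxra, the partner of LXR, was at -1.20 in KO and -0.89 in WT. After IL4 0 of the 13 were called in either genotype.

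Of 12 genes that use isoprenoids, 1 rose after IFN in KO and 2 in WT, with 0 that fell, which is near the 12.6% and 11.1% of all genes called higher. Coq2, which joins the isoprenoid tail to the ring of coenzyme Q, was at 1.19 in KO and 1.29 in WT, and Pdss1, which makes that tail, was at 0.96 in KO and 1.00 in WT and passed the threshold in WT. Of 6 further sterol genes found, 0 were called after IFN or IL4, with all 6 below 0 after IFN in both genotypes. Across the 5 lists 0 genes were called between KO and WT in any treatment or for the mean of the treatments.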

How the data were processed

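Members and gene lists were chosen with earlier results of these data known. The authors deposited expected counts per gene for 18 poly-A libraries, which were rounded to whole counts (21.5% were not whole), and TPM per gene. Per the submitters' processing notes, Bowtie 0.12.8 and RSEM 1.2.3 were used with the mm10 build. Their gene annotation is not given in the sources used here, and reads shared between near-identical copies or overlapping genes may be split. The deposited median-normalized TPM were not used.

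Genes were filtered with filterByExpr (12514 kept), scaled by TMM and then tested in edgeR 4.0.16 (R 4.3.3) by its robust quasi-likelihood method, with 1 coefficient per group over 18 libraries and a common biological coefficient of variation of 0.301. P-values were adjusted by Benjamini and Hochberg within each comparison and called under 0.05. Dividing the log2 fold change by the root of F gave standard errors. The fit was tested on simulated data. CPM are TMM-normalized, and levels are compared between genes in TPM only. Alternatives were DESeq2 1.42.0, no filter, only the groups compared, limma 3.58.1 on log2(TPM + 1) and log2(TPM + 0.1), a Y-linked covariate, the library number as a block, each library left out, and, added after seeing the data, libraries 1, 4 and 7 left out and the earlier quasi-likelihood estimate.

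Each called member was named, filled up to 4 per comparison by lowest p, and up to 3 called genes per related list. Further members and Mbtps1 were chosen after their values were seen. Gene positions are from GENCODE vM21 on GRCm38. Numbers of untreated, IFN and IL4 libraries pair KO and WT by no label. Nor does a label link libraries across treatments, such as 1, 4 and 7. WT libraries 1, 4 and 7 held Y-linked transcripts and WT libraries 3, 6 and 9 did not, while WT library 2 lacked them and 5 and 8 held them. Each cytokine test treated its libraries as unpaired, and a block by number cannot link treatments. Deviations from group means of same-numbered KO and WT libraries correlated across genes, which are not replicates, at 0.65, 0.42 and 0.48 after IL4, so that the IL4 comparison was also fitted with the number as a block. It called 27 genes in place of 8 and 0 members.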

Additional observations from a re-analysis of the deposited data

How the results depend on the processing

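The 0 members called between KO and WT, in the mean over treatments and between the responses stayed at 0 in every alternative and with each library left out. Dhcr7 kept its call after IL4 in both genotypes throughout. Counts after IFN in KO, which were 1 higher and 1 lower, became 1 and 4 with DESeq2, 0 and 2 with only the groups compared, 0 and 10 with limma on log2(TPM + 1) and likewise 0 and 10 on log2(TPM + 0.1), 1 and 2 with the Y-linked covariate, and 0 and 14 without libraries 1, 4 and 7. After IFN in WT, 0 higher and 1 lower became 1 and 2 with DESeq2, 1 and 1 with only the groups compared, 0 and 0 with the Y-linked covariate, and 1 and 12 without libraries 1, 4 and 7. After IL4, 2 higher became 1 in each genotype with no filter, with only the groups compared and with both limma fits. Without libraries 1, 4 and 7 they became 4 in KO and stayed at 2 in WT, with 1 lower in each. With 1 library left out, the count after IFN was 0 to 1 higher and 0 to 5 lower in KO and 0 higher and 0 to 2 lower in WT, and after IL4 it was 1 to 2 higher in KO and 1 in WT. The causes were not tested.

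Values that were not called changed sign between KO and WT after IL4 for Ggps1 without KO library 7 (-0.00913, with 0.363 as the highest when 1 library was left out), Scap without KO library 7 (-0.0222, highest 0.341) and Tm7sf2 without KO library 8 (-0.0293, highest 0.298). The difference of the IFN responses changed sign for Nsdhl on log2(TPM + 1) (-0.0325) and log2(TPM + 0.1) (-0.0357) and for Msmo1 with the Y-linked covariate (-0.0439). That of the IL4 responses did so for Pmvk without KO library 7 (0.0713, with -0.602 as the lowest).

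On TPM, limma on log2(TPM + 1) moved the median of all genes after IFN to -0.31 in KO, against -0.03 in CPM, with members at -0.82. It called 10 members in KO after IFN, among 25.2% of all genes called lower there. Over all genes, calls between KO and WT after IFN, after IL4 and without treatment (8, 8 and 10) became 42, 30 and 83 with DESeq2, 5, 3 and 39 with the Y-linked covariate, 1, 1 and 1 with only the groups compared, and 1, 1 and 5 without libraries 1, 4 and 7. The earlier quasi-likelihood estimate gave 4 without treatment, against 10. For the mean over treatments 49 became 201 with DESeq2 and 32 without libraries 1, 4 and 7. After IL4 in KO 1186 became 422 with only the groups compared. With the library number as a replicate block 24 genes were called between KO and WT after IFN, 27 after IL4 and 96 without treatment. For the mean it was 246, and 0 members were called in each. Same-numbered libraries correlated at 0.35, 0.11 and 0.27 after IFN (0.39, 0.03 and 0.26 over 9712 well-expressed genes). Without treatment they correlated at 0.67, 0.06 and 0.45. Untreated KO library 1 correlated at -0.54 and -0.51 with WT libraries 2 and 3, while KO library 3 correlated at 0.49 with WT library 2. Whether the number pairs libraries in the IFN and untreated groups is not settled. Depth did not limit detection of members, each of which had at least 99 counts per library, while 3 libraries per group and their spread limit what can be called.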
